A study of Homo sapiens with 2 samples.

Results

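The transcripts described here are those of 36 genes of the autophagy machinery and its cargo receptors in 22Rv1, a line of castration-resistant prostate cancer from a human tumour. They were chosen by name, as the listed genes for initiation, conjugation and cargo binding, and all 36 were found once each among the 51795 gene symbols kept from the deposited table. The shEIF3F group is 22Rv1 cells that expressed a short hairpin RNA against EIF3F, the gene for subunit f of the initiation factor eIF3. The shCON group is the same line with the vector control. Total RNA of each was sequenced as 1 library, so no difference below has a replicate check, an error or a p-value. One hairpin was used, and whether the cells were a clone or a pool is not given in the sources used here. Values are TPM, a transcript level per transcript length and per library total, from which read numbers cannot be had, so depth is unknown.

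Autophagy delivers cytoplasm and damaged organelles to the lysosome inside a double membrane, the autophagosome. The ULK1 kinase complex starts the process, a lipid kinase complex built on PIK3C3 marks the membrane with phosphatidylinositol phosphate, and ATG9A, the ATG2 proteins and the WIPI proteins bring and place lipid. The growing membrane is then decorated with small ubiquitin-like proteins of the ATG8 family (the LC3 and GABARAP proteins), which are cut by ATG4 proteases and joined to lipid by ATG7, ATG3 and the ATG12-ATG5-ATG16L1 complex. Cargo receptors such as SQSTM1 hold the cargo to the ATG8 proteins. In prostate cancer lines, as in other cells, autophagy is known to be held back by mTORC1 signalling and to be called on under nutrient or organelle stress.

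EIF3F stood at 17.0 TPM in shEIF3F and 991 TPM in shCON, in the direction of the labels. The 9 prostate luminal markers summed to 993 TPM in shEIF3F and 912 TPM in shCON, and none was at 0. The 5 endothelial markers summed to 0.05 and 0.02 TPM, with CDH5, KDR and VWF at 0 in both libraries. PTPRC, which marks leukocytes, was at 0.03 TPM in shEIF3F and 0.11 TPM in shCON. The 5 fibroblast markers summed to 6.19 TPM in shEIF3F and 16.2 TPM in shCON, of which DCN gave 4.86 and 12.9 TPM, and PDGFRA was at 0 in both. The part of these marker differences in the values below was not tested. Across the 13309 genes that averaged at least 1 TPM over the pair of libraries, the median log2 ratio of shEIF3F over shCON was -0.36. Ratios are log2((shEIF3F TPM + 1) / (shCON TPM + 1)), and a gene at 1 or above, or at -1 or below, is called at least 2-fold higher or lower, a rule of size and not a test.

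Most of the autophagy transcripts tested differed by less than 2-fold between the libraries. Of the 33 genes averaging at least 1 TPM, 5 were lower by 2-fold or more in shEIF3F, where 25.5% of all genes tested were, and 1 was at least 2-fold higher, where 8.45% of all genes were. The lower genes were the protease ATG4B, the conjugating enzymes ATG10 and ATG7, the scaffold ATG13 and the ATG16L1 relative ATG16L2. The higher gene was GABARAP, a lipid-conjugated ATG8 protein. The other 27 were within 2-fold. The median log2 ratio of the 33 was -0.15, beside -0.36 for all genes, with 14 above 0 and 19 below. Of all 13309 genes tested, 4593 were above 0 and 8693 below. The remaining members, RB1CC1, ATG2B and OPTN, had means under 1 TPM and were not counted.

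In summed TPM the 36 genes held 1828 TPM in shEIF3F and 1151 TPM in shCON. GABARAP alone made up 62.7% of that sum in shEIF3F and 32.3% in shCON. Without it, the other 35 genes summed to 682 TPM in shEIF3F and 779 TPM in shCON. Levels spanned a wide range: 15 members were at 10 TPM or more in shEIF3F and 19 in shCON, and the lowest were OPTN at 0.35 TPM in shEIF3F and ATG2B at 0.61 TPM in shCON.

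**Figure D1:**
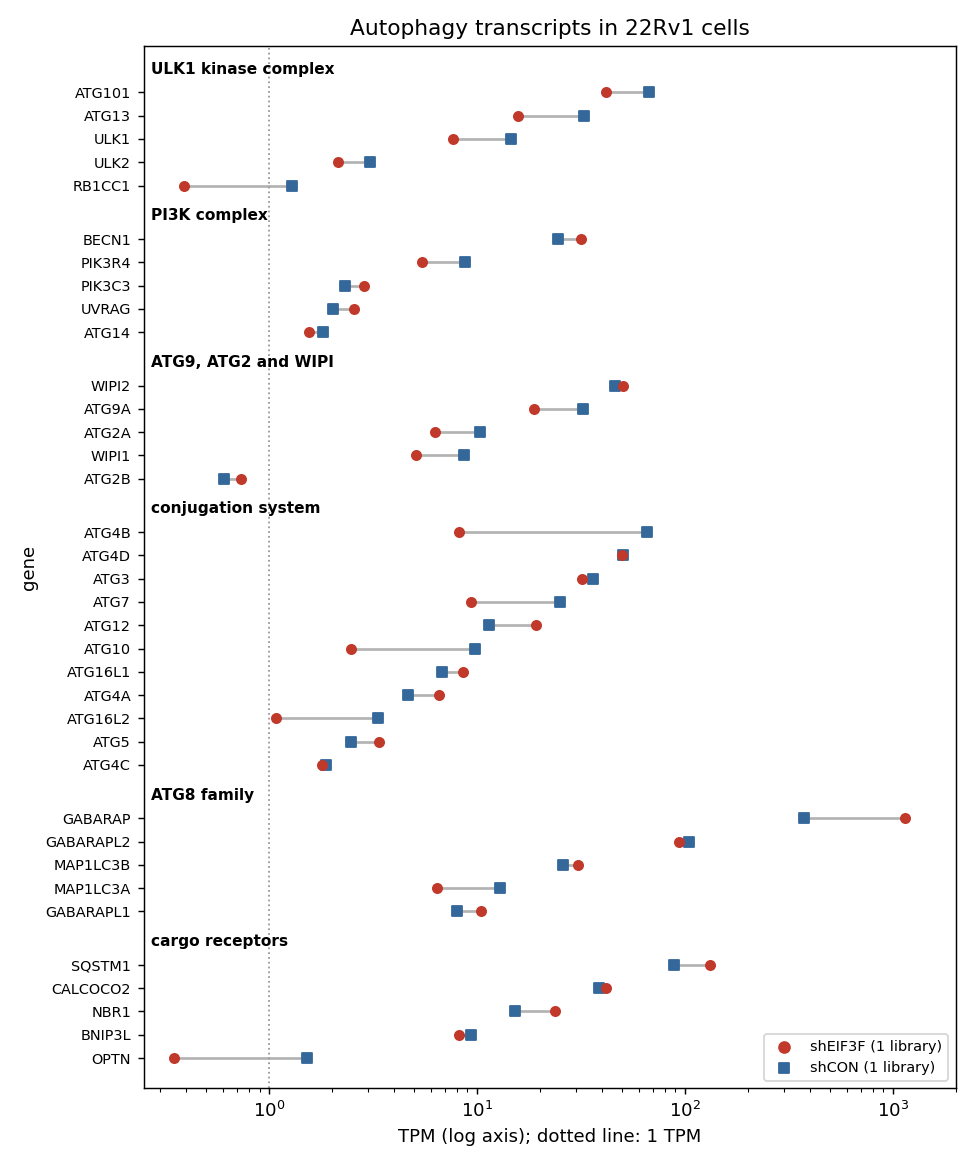
TPM on a log axis for each of the 36 genes, grouped by role and ordered within each group by the shCON level; circles are the shEIF3F library, squares the shCON library, 1 library each. ATG4B shows the widest gap to the left, with 8.18 TPM in shEIF3F and 65.4 TPM in shCON, and GABARAP the widest to the right, with 1146 and 372 TPM.

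All 5 members of the ULK1 complex were lower in shEIF3F on the deposited scale, where 8693 of the 13309 genes tested were below 0. ATG13, the scaffold that links the kinase to RB1CC1, was at 15.7 TPM in shEIF3F and 32.5 TPM in shCON (log2 ratio -1.01), just past the 2-fold line. ULK1, the kinase that starts autophagy, was at 7.69 TPM in shEIF3F and 14.5 TPM in shCON (-0.84), and its paralog ULK2 was at 2.15 and 3.06 TPM (-0.37). ATG101, which stabilises ATG13, was at 41.9 TPM in shEIF3F and 67.3 TPM in shCON (-0.67). RB1CC1, the large scaffold also called FIP200, was at 0.39 TPM in shEIF3F and 1.29 TPM in shCON, 30.2% of the control level at values too low for the count. The median of the 4 genes tested was -0.76. With the median of all genes set to 0 by centring, these 4 were still below 0 (from -0.65 to -0.0085), but none was past 2-fold. With the trend of ratio on transcript GC content removed, ULK1 and ATG101 were above 0 (0.079 and 0.052).

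Members of the lipid kinase complex differed little, and the core subunits did not go one way. BECN1, the scaffold that regulators such as BCL2 bind, was at 31.8 TPM in shEIF3F and 24.4 TPM in shCON (log2 ratio 0.37). The catalytic subunit PIK3C3 was at 2.85 and 2.33 TPM (0.21), whereas PIK3R4, its regulatory partner, was at 5.42 TPM in shEIF3F and 8.75 TPM in shCON (-0.60). ATG14, which directs the complex to the forming autophagosome, was at 1.55 TPM in shEIF3F and 1.82 TPM in shCON (-0.15). UVRAG, which takes the place of ATG14 in the endosomal form, was at 2.56 and 2.03 TPM (0.23). UVRAG made up 62.3% of the TPM of these alternative subunits in shEIF3F and 52.7% in shCON. These are shares of low joint levels, 4.11 TPM in shEIF3F and 3.85 TPM in shCON.

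Among the genes for lipid supply, ATG9A, the transmembrane scramblase carried on vesicles, was at 18.9 TPM in shEIF3F and 32.3 TPM in shCON (log2 ratio -0.75). ATG2A, a lipid transfer protein, was at 6.26 and 10.3 TPM (-0.64). Its paralog ATG2B was near the bottom of the measured range, at 0.73 TPM in shEIF3F and 0.61 TPM in shCON. The phosphoinositide-binding protein WIPI1 was at 5.08 TPM in shEIF3F and 8.65 TPM in shCON (-0.67), while WIPI2, which recruits ATG16L1, was at 50.4 and 46.3 TPM (0.12). With the trend of ratio on GC content removed, ATG9A was at -0.021, ATG2A at 0.28, WIPI1 at -0.37 and WIPI2 at 0.64. WIPI2 was the more abundant of the pair in both libraries, with 90.8% of their joint TPM in shEIF3F and 84.3% in shCON.

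Of the 11 conjugation genes 4 were at least 2-fold lower, where 25.5% of all genes were, and 7 were within 2-fold. After centring 2 were lower, where 16.0% of all genes were, and 1 was higher, where 14.7% were. ATG4B, the main protease that primes ATG8 proteins and frees them from lipid, had the lowest ratio of the 33, at 8.18 TPM in shEIF3F and 65.4 TPM in shCON (log2 ratio -2.86). Only 2.16% of all genes tested had a lower ratio. ATG10, which joins ATG12 to ATG5, was at 2.48 TPM in shEIF3F and 9.78 TPM in shCON (-1.63). ATG7, the activating enzyme for both conjugation branches, was at 9.38 TPM in shEIF3F and 25.1 TPM in shCON (-1.33). ATG16L2, a relative of ATG16L1, was at 1.08 and 3.34 TPM (-1.06). ATG4B and ATG10 were also past 2-fold once centred on the median of all genes (-2.50 and -1.27) or corrected for the GC trend (-2.09 and -1.63). ATG7 was at -0.97 when centred and at -1.05 when corrected for GC content, and ATG16L2 at -0.70 when centred and at -0.14 when corrected.

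The other conjugation genes lay on either side of no difference. ATG12, the ubiquitin-like protein joined to ATG5, was at 19.3 TPM in shEIF3F and 11.5 TPM in shCON (log2 ratio 0.70), and it was past 2-fold once centred (1.06). Its partner ATG5 was at 3.36 and 2.49 TPM (0.32), and ATG16L1, which completes their complex, at 8.55 and 6.75 TPM (0.30). ATG3, the enzyme that passes ATG8 proteins to lipid, was at 31.9 TPM in shEIF3F and 36.2 TPM in shCON (-0.18). The genes for the ATG12-ATG5-ATG16L1 complex itself thus had ratios above 0, and those for ATG7 and ATG10, which join its parts, ratios below 0, as deposited, centred, rescaled and with the GC trend removed.

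The ATG4 proteases differed from one another. ATG4D was at 49.7 TPM in shEIF3F and 50.4 TPM in shCON (log2 ratio -0.019), ATG4A at 6.60 and 4.64 TPM (0.43), and ATG4C at 1.79 and 1.87 TPM (-0.041). As shares of the family's TPM, which no rescaling of a whole library can alter, ATG4B made up 12.3% in shEIF3F and 53.5% in shCON, and ATG4D 75.0% and 41.2%. The order of the family was ATG4D, ATG4B, ATG4A, ATG4C in shEIF3F and ATG4B, ATG4D, ATG4A, ATG4C in shCON. Within the ATG16L pair, ATG16L1 held 88.8% in shEIF3F and 66.9% in shCON.

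GABARAP was the most abundant of the 36 transcripts in both libraries, at 1146 TPM in shEIF3F and 372 TPM in shCON, 3.08-fold higher (log2 ratio 1.62). A share of 96.8% of all genes tested had a lower ratio. By the log2 ratio, the other ATG8 genes were within 2-fold. GABARAPL2 was at 93.2 TPM in shEIF3F and 105 TPM in shCON (-0.17), MAP1LC3B, the usual marker of autophagosomes as protein, at 30.4 and 25.9 TPM (0.23), and GABARAPL1 at 10.5 and 7.99 TPM (0.35). MAP1LC3A was at 6.42 TPM in shEIF3F and 12.9 TPM in shCON, 49.9% of the control level. With 1 TPM added to each value its log2 ratio was -0.90, just inside the 2-fold line. That ratio was 0.016 with the GC trend removed. GABARAP made up 89.1% of the ATG8 family's TPM in shEIF3F and 71.0% in shCON, while GABARAPL2 made up 7.25% and 20.1%. Without GABARAP the family summed to 141 TPM in shEIF3F and 152 TPM in shCON. Of the related genes and pseudogenes, GABARAPL3, MAP1LC3C, MAP1LC3BP1 and MAP1LC3P were listed at 0 in both libraries, and MAP1LC3B2 was at 0.34 TPM in shEIF3F and 0.12 TPM in shCON. How reads that match several copies were counted is not given in the sources used here, and the part of shared reads in these levels was not tested.

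**Figure D2:**
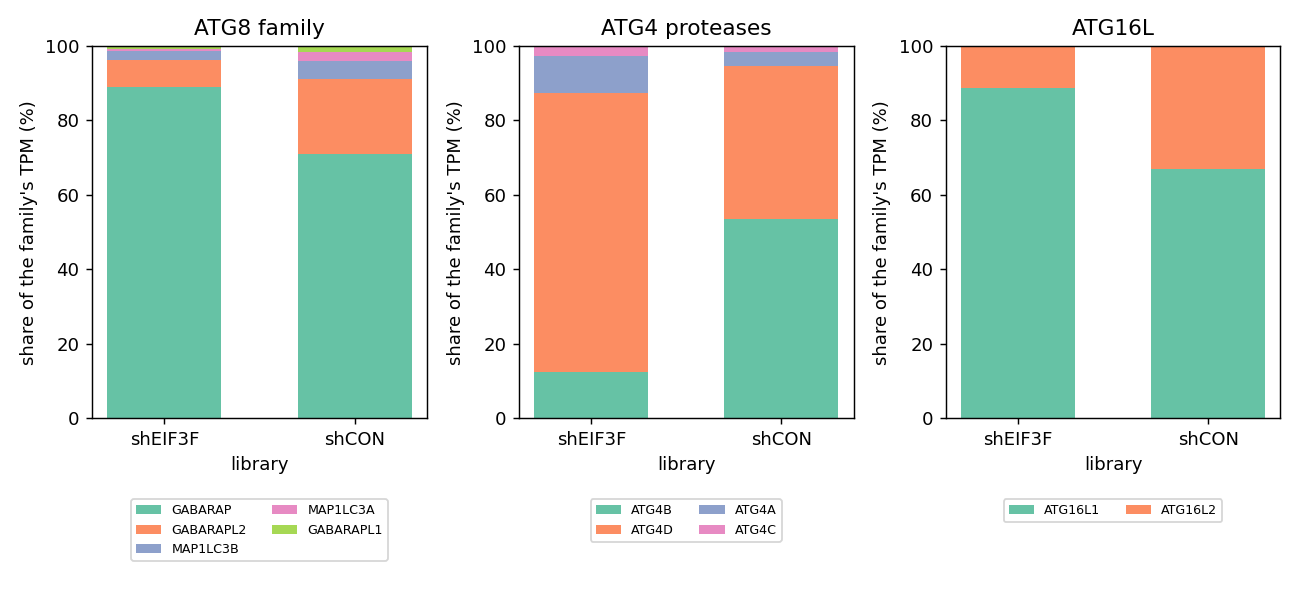
Share of each family's summed TPM (percent) taken by each gene, shEIF3F at left and shCON at right in each panel, 1 library each, for the ATG8 family, the ATG4 proteases and the ATG16L pair. GABARAP takes 89.1% in shEIF3F and 71.0% in shCON, and ATG4B 12.3% and 53.5%.

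Of the cargo receptors, SQSTM1 and NBR1, which bring in ubiquitinated protein, had the highest ratios. SQSTM1, also called p62, was at 133 TPM in shEIF3F and 88.5 TPM in shCON (log2 ratio 0.58). NBR1, its partner, was at 23.8 TPM in shEIF3F and 15.2 TPM in shCON (0.61). CALCOCO2, also called NDP52 and known for its part in clearing bacteria and mitochondria, was at 41.5 and 38.8 TPM (0.10). BNIP3L, a receptor on mitochondria, was at 8.16 TPM in shEIF3F and 9.38 TPM in shCON (-0.18). OPTN, which also serves the clearing of mitochondria, was at 0.35 TPM in shEIF3F and 1.53 TPM in shCON, 22.9% of the control level but under the minimum mean. SQSTM1 and NBR1 were past 2-fold when the libraries were rescaled without their 100 most abundant genes (1.01 and 1.02), and SQSTM1 with the GC trend removed (1.34), where NBR1 was at 0.79.

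The counts depended on how the libraries were scaled. After centring on the median of all genes, 2 of the 33 members were at least 2-fold lower, where 16.0% of all genes were, and 2 were higher, where 14.7% were. With the GC trend removed, 3 were lower (14.0% of all genes) and 2 higher (13.3%). GABARAP, ATG4B and ATG10 were past 2-fold in the same direction as deposited, centred, rescaled and with the GC trend removed. The median of the 33 members was 0.21 after centring, 0.24 after rescaling, where the median of all genes was 0.0080, and 0.079 with the GC trend removed. Ratios of 6 members, ATG3, ATG4C, ATG4D, ATG14, BNIP3L and GABARAPL2, were below 0 as deposited and above 0 after centring. With the GC trend removed, the 6 that went from below to above 0 were ULK1, ATG101, ATG2A, ATG4D, MAP1LC3A and GABARAPL2. In a bulk sample, fewer cells of a kind and less RNA per cell cannot be told apart.

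**Figure D3:**
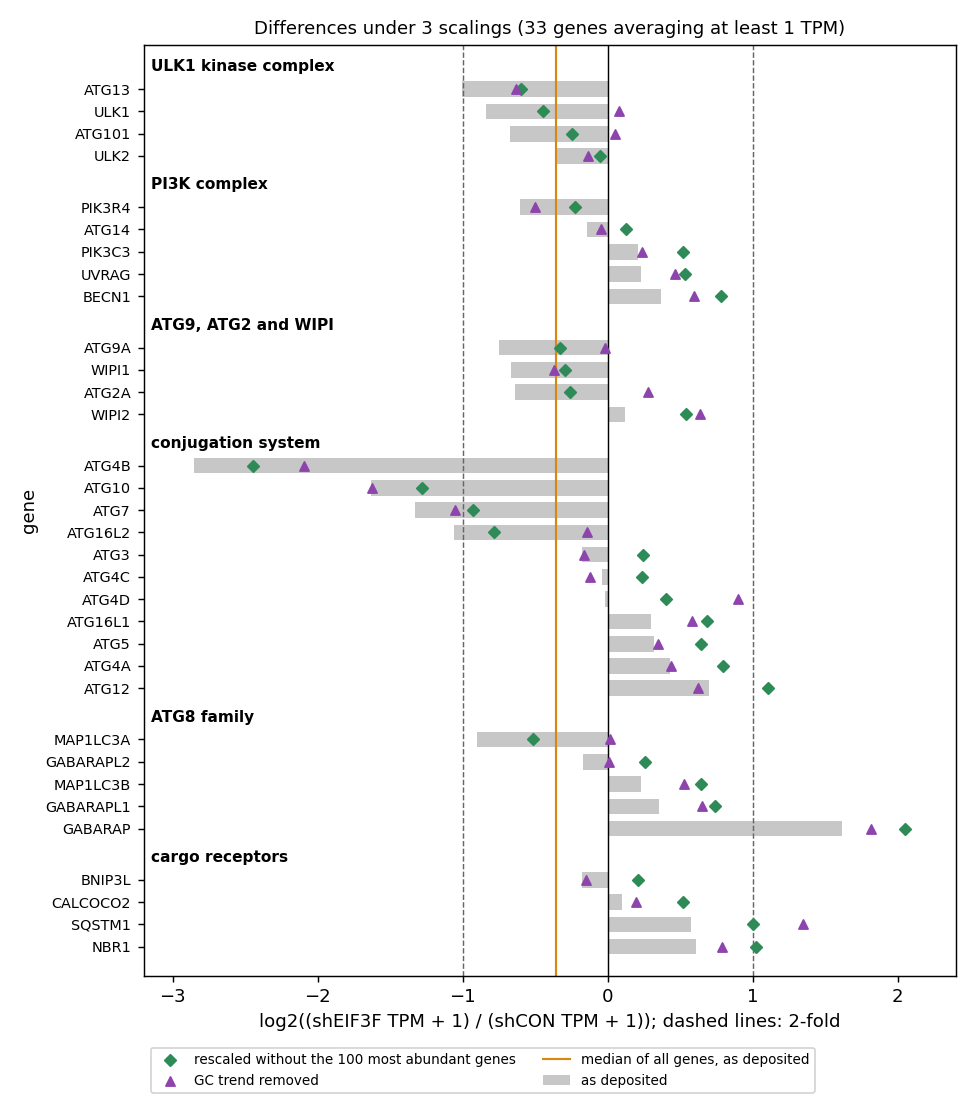
Log2 ratio of shEIF3F over shCON for the 33 genes averaging at least 1 TPM, 1 library per group: bars as deposited, diamonds after rescaling without the 100 most abundant genes, triangles with the GC trend removed, dashed lines at 2-fold, orange line at the median of all genes (-0.36). ATG4B, ATG10 and GABARAP lie beyond the dashed lines in all 3 forms.

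Transcript GC content went with the ratio among the members much as among all genes. Spearman's rho between log2 ratio and GC content was -0.39 across the 33 members and -0.32 across 13031 genes. Genes share both libraries and are not independent replicates. Of the 9 members whose longest transcript has 55% GC or more, 8 had ratios below 0, with a median of -0.75 beside -0.76 for all genes in that range. Of the 24 members under 55%, 11 were below 0, with a median of 0.11 beside -0.17 for all such genes. ATG4B (60.9% GC) lay below the median of that range and SQSTM1 (58.0%) and ATG4D (64.8%) above it, whereas ATG10 (43.2%) was low among transcripts of modest GC content. The 55% limit was chosen after earlier results were known.

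**Figure D4:**
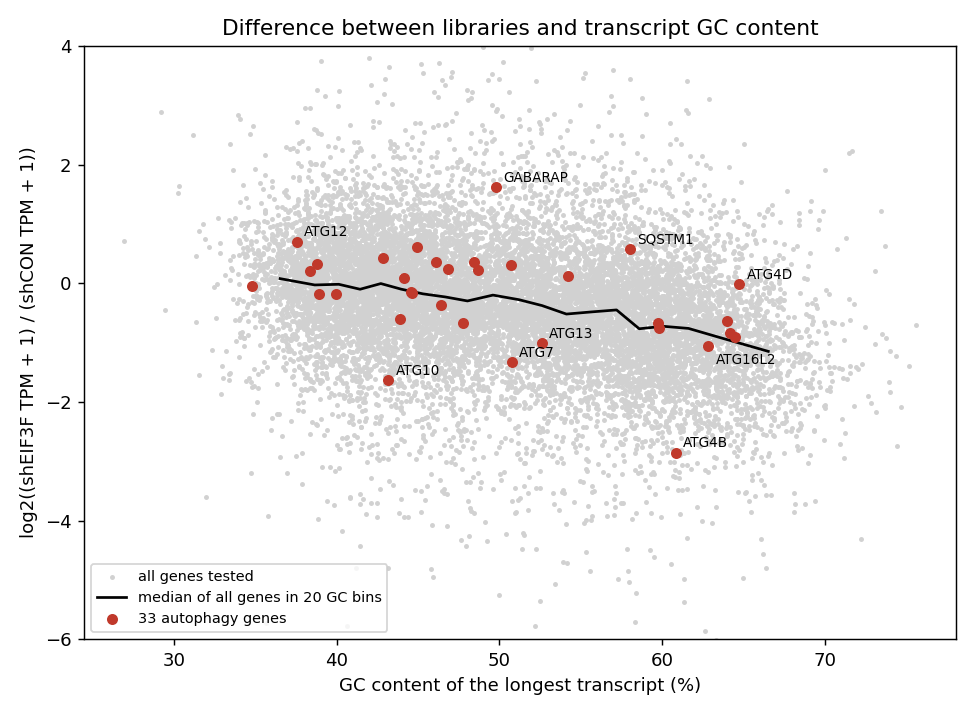
Log2 ratio of shEIF3F over shCON against the GC content (percent) of the longest annotated transcript; grey points are all genes tested with a GC value, red points the 33 autophagy genes, the black line the median of all genes in 20 GC bins. The axis runs from -6 to 4 and leaves out 25 grey points. The red points follow the falling line, with ATG4B and ATG10 below it and GABARAP and SQSTM1 above it.

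Promoter sequence was taken from RefSeq (build GRCh38.p14), which held 37 windows for 31 of the 36 genes. RB1CC1, UVRAG, ATG4D, MAP1LC3A and BNIP3L are the other members. The 250 bases before each start site were searched on both strands for CACGTG, the E-box that MiT/TFE factors can bind, for its extended form TCACGTGA found in promoters of lysosomal genes, which contains the first, and for GTAAACA, a FOXO element. CACGTG was in 2 of the 37 member windows, those of ATG3 and ATG14, and in 6.34% of all 35116 windows of that length. GTAAACA was in 1, that of CALCOCO2, and in 2.98% of all windows. TCACGTGA was in 0 of the 37 and in 0.854% of all windows. These are descriptions of letters and not of factor binding. The 3 matches are shown 5′ to 3′ with the motif in capitals.
ATG3, chr3:112561964-112561991, minus strand: ctttctcacgtCACGTGccgggagagtc
ATG14, chr14:55411835-55411862, minus strand: aaacaaaatccCACGTGactggctctcc
CALCOCO2, chr17:48830798-48830826, plus strand: aaaaaagaaaaGTAAACAgcttcttccag
The motif starts 18 bases before the start site in ATG3, 21 in ATG14 and 226 in CALCOCO2. These 3 genes had log2 ratios of -0.18, -0.15 and 0.10.

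Of the 5 genes that were at least 2-fold lower in shEIF3F, ATG10, ATG7, ATG13 and ATG16L2 have promoter windows with a stretch free of annotated exons. These stretches are shown, all in lower case, so that the start regions of the lower genes can be compared. None of the 3 motifs was found in them.
ATG10, chr5:81971773-81972022, plus strand: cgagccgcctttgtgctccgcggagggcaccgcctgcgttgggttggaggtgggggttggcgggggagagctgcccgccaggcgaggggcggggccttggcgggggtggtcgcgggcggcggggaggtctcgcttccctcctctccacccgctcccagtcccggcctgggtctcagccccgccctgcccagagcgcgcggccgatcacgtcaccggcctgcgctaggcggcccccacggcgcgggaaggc
ATG7, chr3:11272147-11272308, plus strand: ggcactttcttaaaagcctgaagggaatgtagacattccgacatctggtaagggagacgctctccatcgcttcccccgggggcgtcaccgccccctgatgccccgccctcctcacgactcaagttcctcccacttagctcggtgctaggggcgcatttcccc
ATG13, chr11:46617303-46617526, plus strand: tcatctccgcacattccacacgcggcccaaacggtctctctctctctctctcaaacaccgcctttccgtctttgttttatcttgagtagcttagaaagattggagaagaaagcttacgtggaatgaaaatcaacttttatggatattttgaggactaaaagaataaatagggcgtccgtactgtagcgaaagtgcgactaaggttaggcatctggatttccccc
ATG16L2, chr11:72814161-72814307, plus strand: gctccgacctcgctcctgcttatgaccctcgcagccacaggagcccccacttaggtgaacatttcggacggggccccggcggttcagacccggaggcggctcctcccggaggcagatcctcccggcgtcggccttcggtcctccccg

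Many of these genes lie over other genes, and the use of strand in counting is not given in the sources used here, so their reads may not be separable. Of the 36 members 21 share exon bases with another annotated gene (58.3%), beside 51.8% of all genes tested. All 6 genes past 2-fold were among them, and 0 of the 14 tested members that share none were past 2-fold. Of all genes that share none, 25.3% were lower and 8.73% higher. These shares were close to those over all genes tested, sharing or not, of which 25.5% were lower and 8.45% higher. ATG10 shares 6.86% of its exon bases with RPS23, a ribosomal protein gene on the other strand. RPS23 was at 6854 TPM in shEIF3F and 3228 TPM in shCON (log2 ratio 1.09). ATG12 shares 4.25% with AP3S1 on the other strand, at 109 TPM in shEIF3F and 40.1 TPM in shCON (1.42). ATG7 shares 18.1% with VGLL4 on the other strand, at 24.0 TPM in shEIF3F and 26.7 TPM in shCON (-0.15). ATG4B shares 3.57% with THAP4, at 35.7 and 57.6 TPM (-0.68). GABARAP shares 30.5% with a same-strand gene, AC120057.2, that was at 0.88 TPM in shEIF3F and 2.47 TPM in shCON, far below GABARAP itself. ATG101 shares 19.2% with an antisense gene, AC025259.1, which was at 28.4 TPM in shEIF3F and listed at 0 in shCON. ATG16L2 shares 7.89% with FCHSD2, at 1.06 TPM in shEIF3F and 4.18 TPM in shCON (-1.33). The part of shared reads in these differences was not tested.

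Further genes of the pathway were read from 6 lists, of which 87 of 90 genes reached a mean of 1 TPM. Of these 15 were at least 2-fold lower, where 25.5% of all genes were, and 9 higher, where 8.45% were, with a median of -0.15. The balance turned round with the scaling: 6 were lower and 19 higher after centring, where 16.0% and 14.7% of all genes were, and 6 lower and 15 higher with the GC trend removed (14.0% and 13.3% of all genes). The counts of single lists below are on the deposited scale unless another is named. Among other initiation genes 3 of 15 were lower and 1 higher, near the shares of all genes, and after centring 3 were lower and 2 higher. The ATG9A paralog ATG9B was at 0.87 TPM in shEIF3F and 8.69 TPM in shCON (log2 ratio -2.37), and TMEM41B, an endoplasmic reticulum scramblase needed for autophagosome formation, at 3.65 and 20.8 TPM (-2.23). TECPR1, a tethering protein, had a ratio of -1.44, and NRBF2, a subunit of the ATG14 form of the lipid kinase complex, was higher at 8.47 TPM in shEIF3F and 3.37 TPM in shCON (1.12).

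Of the other cargo receptors 3 of 16 were lower and 2 higher, also near the shares of all genes (25.5% and 8.45%). After centring 2 were lower and 3 higher, beside 16.0% and 14.7% of all genes. FKBP8, a receptor on mitochondria, was at 42.9 TPM in shEIF3F and 320 TPM in shCON (log2 ratio -2.87), and RTN3, a receptor for endoplasmic reticulum tubules, at 24.9 and 122 TPM (-2.25). BNIP3, the relative of BNIP3L, was at 23.8 TPM in shEIF3F and 54.1 TPM in shCON (-1.16). RETREG1, a receptor for endoplasmic reticulum sheets, was higher at 3.71 TPM in shEIF3F and 0.98 TPM in shCON (1.25). The second higher gene, FUNDC1 (1.10), named after its value was seen, encodes another receptor on mitochondria.

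For fusion with the lysosome, 2 of 12 genes were lower and 0 higher as deposited, where 25.5% and 8.45% of all genes were. After centring 0 were lower and 2 higher, where 16.0% and 14.7% of all genes were. PLEKHM1, an adaptor for RAB7A, had a ratio of -1.21 and the tethering subunit VPS16 one of -1.01. RAB7A itself was at 276 TPM in shEIF3F and 156 TPM in shCON (0.82), and VPS11 at 31.0 and 16.3 TPM (0.89). Of the 6 tested transcription factors known to control autophagy genes, 2 were lower and 0 higher, beside 25.5% and 8.45% of all genes, and 0 were past 2-fold either way after centring, rescaling or GC removal. TFEB was at 3.27 TPM in shEIF3F and 7.79 TPM in shCON (-1.04), TFE3 at 5.91 and 13.1 TPM (-1.03), FOXO3 at 1.61 and 3.31 TPM (-0.72), and FOXO4 at 3.51 and 5.28 TPM (-0.48). Of the 14 genes tested for mTORC1, which holds autophagy back, and AMPK, which promotes it, 3 were lower and 0 higher as deposited. Among all genes 25.5% were lower and 8.45% higher. After centring, rescaling or GC removal 0 of the 14 were lower and 2 higher. In those 3 forms 14.0% to 16.0% of all genes were lower and 13.3% to 14.9% higher. MTOR was at 3.77 TPM in shEIF3F and 10.3 TPM in shCON (-1.24), the AMPK-activating kinase STK11 at 24.2 and 55.4 TPM (-1.16), the mTOR inhibitor DEPTOR at 1.91 and 4.82 TPM (-1.0), and the AMPK subunit PRKAB1 at 20.1 and 9.91 TPM (0.95). TFEB, TFE3, PLEKHM1, VPS16, BNIP3, MTOR, STK11 and DEPTOR were all within 2-fold after centring, and RAB7A, VPS11 and PRKAB1 were then past it.

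Genes of the lysosome, where autophagosomes end, had the highest median of the 6 lists (0.37), and of 24 tested 6 were past 2-fold higher, where 8.45% of all genes were, and 2 past 2-fold lower, where 25.5% were. After centring or rescaling 10 were higher, where 14.7% and 14.9% of all genes were, and 1 lower, where 16.0% were. With the GC trend removed 8 were higher and 1 lower, beside 13.3% and 14.0% of all genes. The protective protein CTSA was at 126 TPM in shEIF3F and 42.4 TPM in shCON (log2 ratio 1.54), and the membrane protein SCARB2 at 40.3 and 17.8 TPM (1.14). The lower genes were the galactosidase GLA at 5.73 TPM in shEIF3F and 31.6 TPM in shCON (-2.28) and the protease CTSD at 55.8 and 128 TPM (-1.18), which was at -0.82 after centring. As deposited, the lysosome median was above those of all autophagy groups, of which the cargo receptors had the highest (0.34) and the ULK1 complex the lowest (-0.76). With the GC trend removed, the lysosome median was 0.79 and the order of the groups changed. The ATG8 family was then highest (0.52) and the conjugation system lowest (-0.12), with the cargo receptors at 0.49 and the ULK1 complex at -0.042. With 1 library per group, the difference between these lists was not tested.

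**Figure D5:**
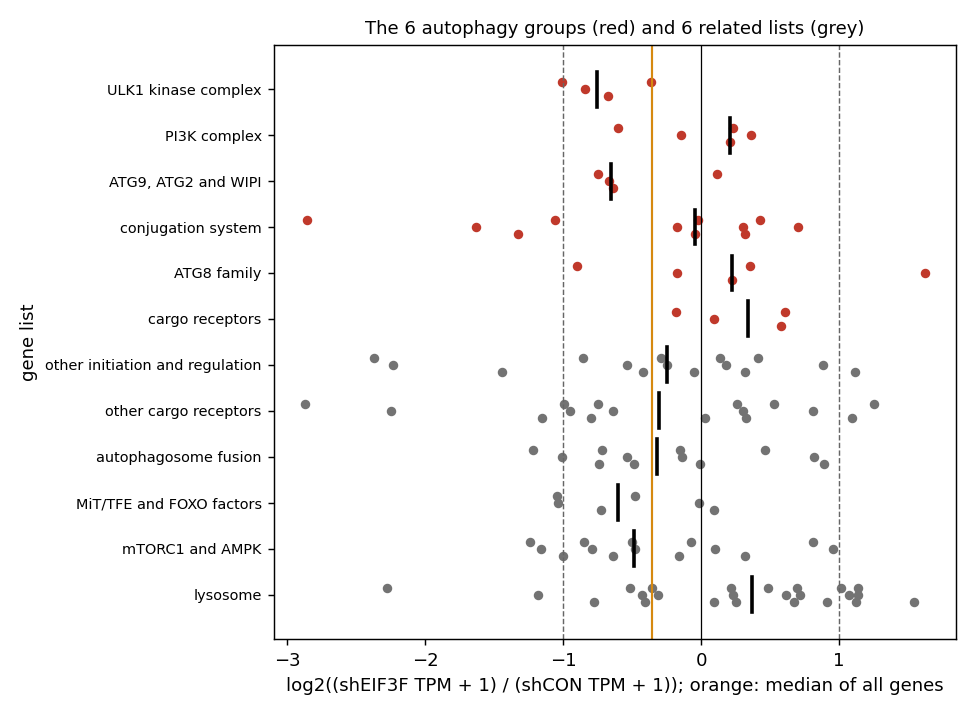
Log2 ratio of shEIF3F over shCON, 1 library per group, for genes averaging at least 1 TPM in the 6 autophagy groups (red) and 6 related lists (grey); black bars are list medians, the orange line the median of all genes (-0.36), dashed lines 2-fold. On the deposited scale shown, the medians run from -0.76 for the ULK1 complex to 0.37 for the lysosome.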

How the data were processed

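Per the labels' protocols, Trizol was used to extract RNA, and an Illumina TruSeq kit to build libraries. The submitters' processing notes name CASAVA, HISAT2 (no versions) and hg19. How genes were counted, with which annotation and whether by strand is not given in the sources used here. From their reads, the authors deposited TPM per gene, 1 column per library, matched to groups by the sample descriptions.

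Of 58884 entries, 27 turned into dates by spreadsheet software and 5531 symbols of small RNA genes (GENCODE release 29) were left out, and entries with the same symbol were summed. GC content and exon sharing came from that release, which describes GRCh38. Both were matched to the hg19 values by gene symbol, and exon sharing in hg19 itself was not examined. With 1 library per group no test was made. The named genes are the 36 members, EIF3F and up to 4 genes per related list with the largest absolute log2 ratio among those averaging at least 1 TPM. Markers outside that rule are named for the cell type check. The summed level of the leukocyte list is not reported here. Members and lists were chosen with earlier results of these data known. Alternatives were pseudocounts of 0.1 and 5, no minimum or a mean of 5 TPM, centring on the median of all genes, rescaling without the 100 most abundant genes, 1 entry per symbol, GC trend removal in 20 bins, and protein-coding genes. Python 3.11.15, NumPy 2.4.6 and pandas 2.3.3 were used, and the ratio and GC steps were tested on simulated data.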

Additional observations from a re-analysis of the deposited data

How the results depend on the processing

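No paired analysis was possible because each group has 1 library. As deposited, 5 of 33 members were lower by 2-fold or more and 1 higher, with a median log2 ratio of -0.15. A pseudocount of 0.1, no minimum TPM, a mean of 5 TPM or more, 1 entry per symbol and protein-coding genes alone gave 4 or 5 lower, 1 higher and medians within 0.1 of that value. The count of lower members was 2 with a pseudocount of 5 (ATG4B and ATG7), 2 after centring, 2 after rescaling and 3 with the GC trend removed, and that of higher members was 2 after centring, 4 after rescaling and 2 with the GC trend removed. The median was 0.21, 0.24 and 0.079 in those last 3 forms. Centring and GC removal set the median of all genes to 0 by construction. No member past 2-fold changed sign. Among all genes the share at least 2-fold lower was 14.3% with a pseudocount of 5, 14.7% with no minimum, 16.0% after centring, 16.0% after rescaling and 14.0% with the GC trend removed, and the share higher was 3.57%, 5.11%, 14.7%, 14.9% and 13.3%. Among genes that share no exon bases, a choice made after seeing the data, 0 members were lower and 0 higher because the 6 past 2-fold all share bases and were left out. For the other shifts the cause was not tested.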
